A study of Mus musculus with 6 samples.

Results

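The genes described here are 47 members of the machinery that copies and divides the genome, followed in mouse bone marrow-derived macrophages (BMMs) on the first day of osteoclast formation. They were chosen by name, 26 for DNA replication in S phase and 21 for mitosis, and matched by symbol to the deposited gene table. All 47 were found among its 45706 genes, and all 47 passed the filter on low counts, which kept 12224 genes. The 6 libraries were made from messenger RNA of primary cells, in 3 groups of 2. RANKL with acetate (ACD1) is cells given RANKL, the cytokine that starts osteoclast formation, together with sodium acetate for 1 day. RANKL (D1) is cells given RANKL alone for 1 day, and day 0 (D0) is BMMs before RANKL. The labels give no strain, sex, age, dose or growth factor, and state no genetic change in any group. No day 1 group without RANKL is part of the series, so RANKL and the day in culture cannot be told apart, and no other sodium salt served as a control.

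A cell that is about to divide loads ring-shaped MCM helicases onto its chromosomes, fires them at the start of S phase, and copies both strands with polymerases held on the DNA by the sliding clamp PCNA. It then builds a spindle, checks that every chromosome is attached, and separates the copies when the anaphase-promoting complex marks cyclins and other proteins for destruction. Transcription of replication genes is classically controlled by E2F factors, and that of many mitotic genes by complexes that bind the cell cycle genes homology region (CHR) together with the CCAAT-binding factor NF-Y. Osteoclast precursors are known to divide after they receive RANKL and to leave the cell cycle before they fuse.

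The libraries held 10218462 and 10120504 expected counts with RANKL and acetate, 11254961 and 10790709 with RANKL, and 10619530 and 9997527 at day 0. The labels do not say that libraries of a group came from separate cultures or mice, so p-values measure only the spread between these libraries, which may be technical. For each gene, edgeR weighted its own spread by 3 degrees of freedom and the spread shared over all genes by 29.5. Macrophage markers were present in every library, with summed levels of 12130 and 11940 CPM (counts scaled to a common library size) in RANKL with acetate, 5660 and 5725 CPM in RANKL, and 18020 and 17630 CPM at day 0. The summed osteoclast markers were 618 and 589.7 CPM in RANKL with acetate, 2540 and 2545 CPM in RANKL, and 26.14 and 26.38 CPM at day 0, with Calcr at 0 in every library. Of the 9 granulocyte markers, 7 fell in RANKL against day 0 (edgeR adjusted p under 0.05). All 7 macrophage markers were also called lower there, and all 6 osteoclast markers tested were called higher. Over all genes tested in that comparison, 33.5% were called lower and 32.8% higher. The granulocyte markers summed to 191.2 and 185.2 CPM in RANKL with acetate, 195.7 and 197.1 CPM in RANKL, and 256.6 and 263.8 CPM at day 0. Erythroid markers summed to between 0.39 and 1.36 CPM, with Hbb-bs at 0, and those of T and NK cells to between 0.086 and 0.48 CPM, with Cd3d, Cd3e, Cd3g, Cd8a and Ncr1 at 0. B cell markers summed to between 0.60 and 1.58 CPM. Stem and progenitor markers summed to 15.6 and 14.2 CPM in RANKL with acetate, 9.69 and 10.9 CPM in RANKL, and 16.8 and 15.2 CPM at day 0. Stromal markers summed to 9.99 and 10.5 CPM in RANKL with acetate, 12.9 and 12.7 CPM in RANKL, and 5.15 and 5.23 CPM at day 0. In RANKL against day 0, log2 changes ran from -1.70 to 4.20 over the 3 stem and progenitor markers tested. Those of the 3 stromal markers tested ran from -0.089 to 9.28. The part of these markers in the changes below was not tested, and in bulk RNA fewer cells in cycle and less RNA per cell cannot be told apart.

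Promoter windows, 250 bases before to 50 bases after the annotated start, came from RefSeq on GRCm38.p6 for 37 of the 47 genes, 21 for replication and 16 for mitosis. Gins1, Gins2, Mcm4, Pole, Ccne2, Ccna2, Cdc25c, Aurkb, Kif20a and Tpx2 have no window in that table. Sequences are shown for the 2 replication genes and the 2 mitotic genes with the largest change in RANKL against day 0 among those with an E2F core or a CHR element in the window. They were Rfc4, a subunit of the loader that places PCNA on DNA, Mcm7, a subunit of the replicative helicase, Cdc20, which activates the anaphase-promoting complex, and Bub1, a kinase of the spindle checkpoint. Each runs 5′ to 3′ on the gene's strand, and capitals mark E2F cores and CHR elements. All 4 genes lie on the minus strand.
Rfc4, chr16:23127681-23127980: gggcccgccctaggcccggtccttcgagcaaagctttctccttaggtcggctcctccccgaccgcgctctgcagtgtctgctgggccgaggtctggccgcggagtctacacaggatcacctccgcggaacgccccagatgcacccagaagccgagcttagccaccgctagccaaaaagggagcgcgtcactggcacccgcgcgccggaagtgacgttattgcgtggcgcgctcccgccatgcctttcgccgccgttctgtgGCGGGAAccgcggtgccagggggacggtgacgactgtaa
Mcm7, chr5:138171834-138172133: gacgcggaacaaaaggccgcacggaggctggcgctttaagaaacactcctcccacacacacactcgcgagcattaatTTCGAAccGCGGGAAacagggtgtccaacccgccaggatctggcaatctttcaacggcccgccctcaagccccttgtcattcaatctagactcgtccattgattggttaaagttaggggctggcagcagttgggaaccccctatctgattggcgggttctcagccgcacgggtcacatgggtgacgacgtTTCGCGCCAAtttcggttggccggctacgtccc
Cdc20, chr4:118437294-118437593: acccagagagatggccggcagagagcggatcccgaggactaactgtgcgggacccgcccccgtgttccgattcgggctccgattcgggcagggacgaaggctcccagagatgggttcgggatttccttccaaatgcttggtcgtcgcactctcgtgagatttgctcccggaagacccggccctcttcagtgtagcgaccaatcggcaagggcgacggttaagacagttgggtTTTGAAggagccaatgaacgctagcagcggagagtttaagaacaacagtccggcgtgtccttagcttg
Bub1, chr2:127831810-127832109: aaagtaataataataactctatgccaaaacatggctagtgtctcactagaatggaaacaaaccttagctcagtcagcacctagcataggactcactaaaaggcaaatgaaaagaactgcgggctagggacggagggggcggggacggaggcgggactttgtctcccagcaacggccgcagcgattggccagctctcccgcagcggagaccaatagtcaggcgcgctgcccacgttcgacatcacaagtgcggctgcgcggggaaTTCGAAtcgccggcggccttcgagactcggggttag

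Motifs of 3 kinds were searched on both strands. An E2F core was taken as TTCCCGC, as its variants with TTGGCGC in that place, with TTCGCGC there, or finally with TTGCCGC. The CHR element was taken as TTTGAA, and the form that reads TTCGAA was also allowed. The box bound by NF-Y was CCAAT. The Rfc4 window held 1 E2F core, which begins 11 bases after the start. The Mcm7 window, the one of its 2 windows with more matches, held 3 E2F cores, 1 CHR element and 3 CCAAT boxes, and 3 pairs of these matches overlap one another near the start. The Cdc20 window held a CHR element that begins 18 bases before the start and CCAAT boxes 53 and 8 bases before it. In Bub1 the CHR element begins 14 bases after the start and the CCAAT boxes 68 and 42 bases before it. A match describes letters in a window and is not evidence that a factor binds there.

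Over the matched genes, an E2F core lay in the windows of 14 of 21 replication genes (66.7%) and 3 of 16 mitotic genes (18.8%), against 2936 of all 27025 genes in the table (10.9%). CHR elements ran the other way, with 5 of 21 replication genes (23.8%) and 12 of 16 mitotic genes (75.0%), against 21.7% of all genes. A CCAAT box was found for 13 of 21 replication genes (61.9%) and 14 of 16 mitotic genes (87.5%), against 41.1% of all genes. Most motifs were present both in genes that rose in RANKL against day 0 and in the others. An E2F core lay in 9 of the 14 replication genes that rose and 5 of the other 7. A CHR element lay in 9 of the 11 mitotic genes that rose and 3 of the other 5. CHR elements of replication genes were the exception, in 5 of the 14 that rose and 0 of the other 7. A CCAAT box lay in 9 of those 14 and 4 of those 7 replication genes. Among mitotic genes it lay in 10 of the 11 that rose and 4 of the other 5. The window of Pcna, the replication gene that fell most, held 1 CCAAT box and neither an E2F core nor a CHR element, while Mki67, a proliferation marker that was not called, held 1 E2F core, 2 CHR elements and 3 CCAAT boxes.

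**Figure D1:**
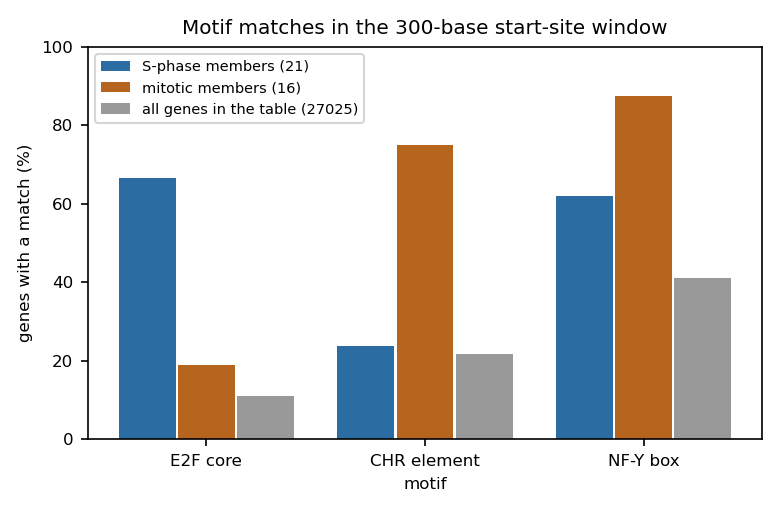
Share of genes (%) with at least 1 match to each motif in the 300-base window around the start, for the 21 replication (S-phase) and 16 mitotic genes with a window and for all 27025 genes of the promoter table. E2F cores are most frequent in replication genes (66.7%) and CHR elements in mitotic genes (75.0%).

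After 1 day of RANKL, transcripts of most of the 47 genes were modestly more abundant than at day 0, in both phases. In RANKL against day 0, 31 genes rose, 2 fell and 14 were not called by edgeR's quasi-likelihood test, whose p-values were adjusted by Benjamini-Hochberg over all genes and called under 0.05. Calls were common in this comparison: 66.3% of all genes tested were called, 32.8% higher and 33.5% lower. The 33 calls among 47 genes therefore lay near the background share, whereas the higher calls lay above it and the lower calls below it. Both RANKL libraries were above both day 0 libraries for 33 genes and below for 5, against 40.9% and 40.5% of all genes. Changes were small, from -0.53 to 0.91 on the log2 scale, with a median of 0.26 beside 0.010 over all genes.

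Adding acetate left these transcripts close to their level with RANKL alone. Against RANKL alone, 5 genes rose, 3 fell and 39 were not called in RANKL with acetate, while 30.4% of all genes tested were called, 16.7% higher and 13.7% lower. Fewer of the 47 genes were called than that background. The acetate libraries lay wholly above the RANKL libraries for 14 genes and wholly below for 8, against 31.6% and 31.4% of all genes, and the median change was 0.021 beside -0.0037 over all genes. Against day 0, 33 genes rose, 1 fell and 13 were not called in RANKL with acetate, beside 60.7% of all genes called, 30.3% higher and 30.4% lower. This comparison shares its day 0 libraries with that of RANKL against day 0 and its acetate libraries with the one before, so the 3 comparisons are not independent of each other.

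**Figure D2:**
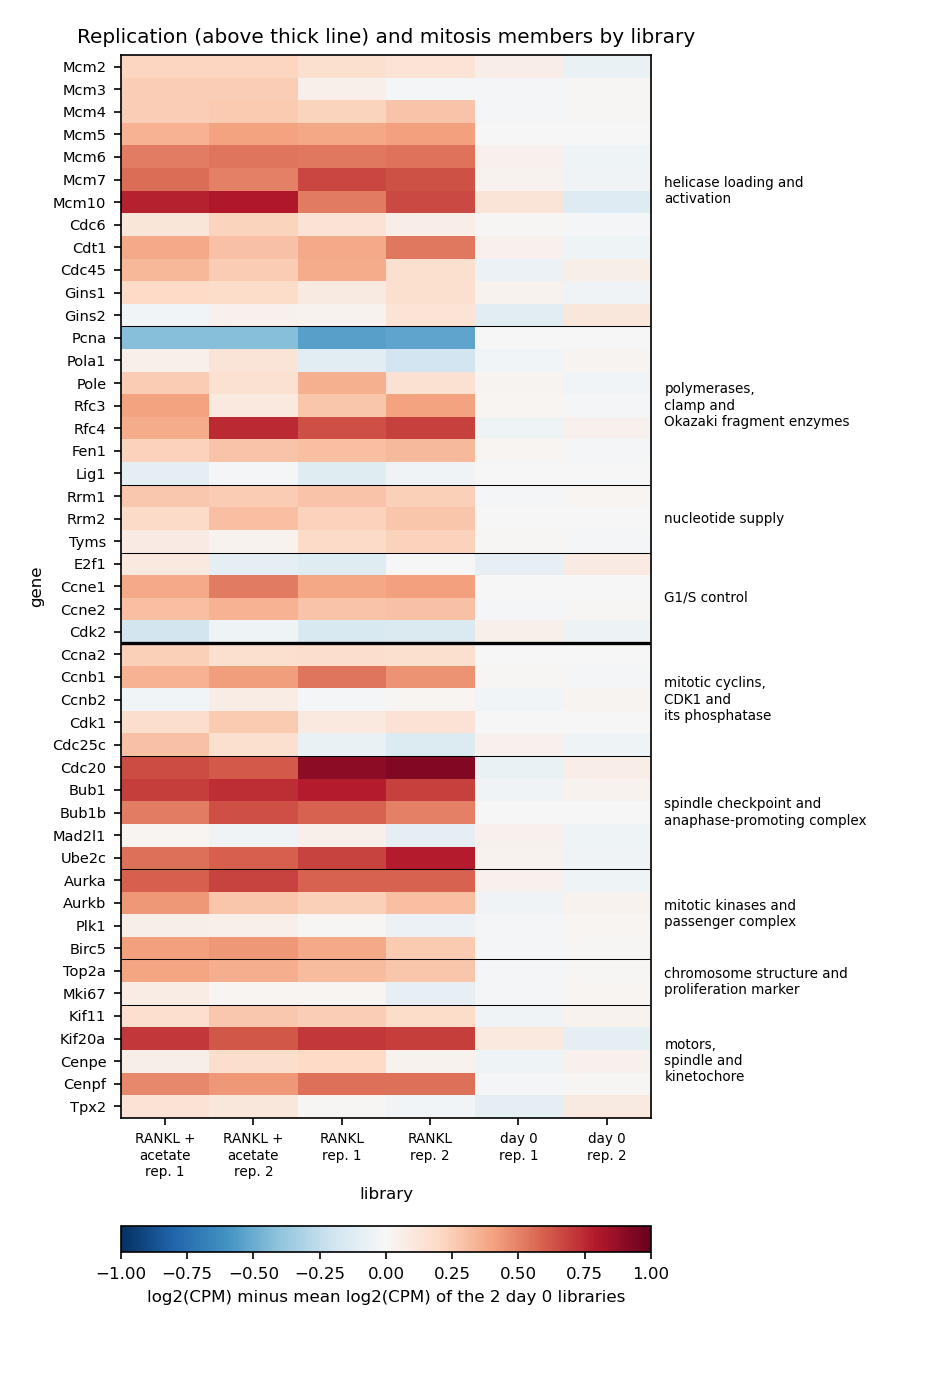
Level of each of the 47 genes in each library, as log2(CPM) minus the gene's mean log2(CPM) over the 2 day 0 libraries (colour, log2 units), with replication genes above the thick line and mitotic genes below it. Columns run from RANKL with acetate through RANKL to day 0. Most rows are red in all 4 RANKL-treated libraries, with Cdc20 the reddest in RANKL alone, and Pcna is the one clearly blue row.

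The 12 genes of helicase loading and activation gave 8 that rose and none that fell in RANKL against day 0, with 4 not called, and 10 that rose in RANKL with acetate against day 0. Mcm7 had 284 and 272 CPM in RANKL with acetate, 306 and 299 CPM in RANKL, and 197 and 188 CPM at day 0. All 4 treated libraries lay above day 0, and the acetate libraries lay below those with RANKL alone. The gene rose 1.57-fold in RANKL against day 0 (log2 0.65 ± 0.044 SE, edgeR adjusted p = 3.5e-15) and fell by 0.12 ± 0.042 on the log2 scale in RANKL with acetate against RANKL (edgeR adjusted p = 0.0268). That fall was not called without replicate 2 of RANKL with acetate (-0.094, edgeR adjusted p = 0.225), nor without either library of RANKL alone (edgeR adjusted p = 0.147 and 0.0534). On GRCm38 its exons overlap the microRNA genes Mir25 and Mir93 on the same strand and Ap4m1 and Cops6 on the other, and the labels do not say whether reads were counted by strand. Mcm10, which helps the loaded helicase start to move, had 124 and 127 CPM in RANKL with acetate, 104 and 115 CPM in RANKL, and 79.5 and 66.3 CPM at day 0. The groups did not overlap, with the acetate libraries highest. Mcm10 rose by 0.58 ± 0.069 in RANKL against day 0 (edgeR adjusted p = 4.32e-09) and by a further 0.19 ± 0.064 in RANKL with acetate against RANKL (edgeR adjusted p = 0.0202). The acetate call for Mcm10 was lost without replicate 1 or 2 of RANKL with acetate (edgeR adjusted p = 0.0713 and 0.136) or replicate 1 of RANKL, where 0.12 was left (edgeR adjusted p = 0.314).

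The other helicase subunits, which are built into the same ring, were not all called. Mcm3 had 289 and 288 CPM in RANKL with acetate, 253 and 242 CPM in RANKL, and 242 and 245 CPM at day 0. Its RANKL and day 0 libraries overlapped (log2 0.023 ± 0.043, edgeR adjusted p = 0.651), and it rose by 0.22 ± 0.042 in RANKL with acetate against RANKL (edgeR adjusted p = 7.32e-05). That acetate call was lost on the authors' length-scaled values, with adjusted p up to 0.387 from limma on log2(TPM + 0.1), log2(TPM + 1) or log2(FPKM + 0.1). Mcm6 rose by 0.53, Mcm5 by 0.40, Mcm4 by 0.25 and Mcm2 by 0.15 in RANKL against day 0, and none of these 4 was called in RANKL with acetate against RANKL. The Mcm2 rise was not called without RANKL replicate 1 (edgeR adjusted p = 0.0519) or day 0 replicate 2, where it was 0.087 (edgeR adjusted p = 0.191). Cdt1, which brings the helicase to replication origins, rose by 0.45 ± 0.060 (edgeR adjusted p = 4.4e-08), and its partner Cdc6 had a change of 0.11 ± 0.072 that was not called (edgeR adjusted p = 0.188). Cdc45, which joins the helicase to activate it, rose by 0.27 ± 0.091 (edgeR adjusted p = 0.00924), but was not called without RANKL replicate 1 (0.16, edgeR adjusted p = 0.199) or day 0 replicate 1 (edgeR adjusted p = 0.103). Gins1 and Gins2, of the complex that joins it together with Cdc45, were not called in any of the 3 comparisons. Gins2 had 65.1 and 68.4 CPM in RANKL with acetate, 68.2 and 73.2 CPM in RANKL, and 61.6 and 71.7 CPM at day 0, and its 3 groups overlapped.

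Among the 7 polymerase, clamp and Okazaki fragment genes, 4 rose and 2 fell in RANKL against day 0. Pcna (chr2:132249162-132253314, GRCm38), whose product is the sliding clamp, had 428 and 427 CPM in RANKL with acetate, 394 and 399 CPM in RANKL, and 576 and 573 CPM at day 0. No 2 groups overlapped, and day 0 was the highest. Pcna fell by 0.53 ± 0.037 in RANKL against day 0 (edgeR adjusted p = 8.37e-15) and by 0.43 ± 0.037 in RANKL with acetate against day 0 (edgeR adjusted p = 4.08e-12). It was the only one of the 47 genes called lower in RANKL with acetate against day 0. Against RANKL alone, Pcna rose by 0.11 ± 0.037 in RANKL with acetate (edgeR adjusted p = 0.0261), a call lost in 9 of 17 alternatives, among them the omission of each of the 4 libraries compared (edgeR adjusted p from 0.0623 to 0.122). Pcna and Ccnb1 were the 2 genes with fractional expected counts, which arise where reads fit more than 1 place, and the pseudogene Pcna-ps2 had 2.49 to 5.37 CPM.

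The clamp loader subunit Rfc4 had 30.0 and 39.0 CPM in RANKL with acetate, 36.3 and 37.3 CPM in RANKL, and 22.6 and 23.9 CPM at day 0. The acetate libraries straddled those with RANKL alone, and all 4 lay above day 0. Rfc4 rose 1.58-fold in RANKL against day 0 (log2 0.66 ± 0.11, edgeR adjusted p = 3.78e-06), and its exons overlap Eif4a2 on the other strand. Its fellow subunit Rfc3 rose by 0.34 ± 0.11 (edgeR adjusted p = 0.00532), or by 0.28 without RANKL replicate 2, which was not called (edgeR adjusted p = 0.0776). Fen1, the nuclease that trims Okazaki fragments, rose by 0.31 ± 0.051 (edgeR adjusted p = 1.78e-06). Lig1, the ligase that joins those fragments, had a change of -0.078 ± 0.050 (edgeR adjusted p = 0.165). Of the polymerase genes, Pole, the catalytic subunit of the leading-strand polymerase, rose by 0.26 ± 0.073 (edgeR adjusted p = 0.00223), and its 0.15 without RANKL replicate 1 was not called (edgeR adjusted p = 0.122). Pola1, the catalytic subunit that extends primers, had 87.9 and 92.8 CPM in RANKL with acetate, 79.1 and 74.5 CPM in RANKL, and 83.5 and 86.5 CPM at day 0. Its RANKL libraries were the lowest and its acetate libraries the highest. Pola1 fell by 0.14 ± 0.065 in RANKL against day 0 (edgeR adjusted p = 0.0489), a call lost in 14 of 17 alternatives, and rose by 0.23 ± 0.064 in RANKL with acetate against RANKL (edgeR adjusted p = 0.00458), a call lost in 5 of 17. The fall was lost when any library other than RANKL replicate 1 was left out (edgeR adjusted p from 0.0602 to 0.27), and the rise without replicate 2 of RANKL with acetate or of RANKL (edgeR adjusted p = 0.0822 for both).

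All 3 genes of nucleotide supply rose in RANKL against day 0, and none was called in RANKL with acetate against RANKL. Rrm1, the large subunit of ribonucleotide reductase, had 367 and 363 CPM in RANKL with acetate, 371 and 358 CPM in RANKL, and 299 and 309 CPM at day 0. The acetate and RANKL libraries overlapped and all 4 were above day 0, a rise of 0.26 ± 0.040 in RANKL against day 0 (edgeR adjusted p = 7.14e-07). Rrm2, the small subunit, rose by the same 0.26 ± 0.049 (edgeR adjusted p = 2.62e-05). Tyms, thymidylate synthase, had 61.7 and 59.8 CPM in RANKL with acetate, 66.5 and 68.4 CPM in RANKL, and 58.8 and 57.9 CPM at day 0. Tyms rose by 0.21 ± 0.071 in RANKL against day 0 (edgeR adjusted p = 0.00974), with adjusted p as high as 0.986 among alternatives and 0.0551 in edgeR without RANKL replicate 2. On the TPM scale its means were 103 in RANKL with acetate, 117 in RANKL and 117 at day 0. Only 39.62% of its transcript-level counts came from its main transcript, the lowest share among the 47 genes, and 28.74% from one that keeps an intron.

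Of the 4 genes of G1/S control, the E-type cyclins that open S phase rose and the other 2 were not called in RANKL against day 0. Ccne1 had 33.2 and 36.5 CPM in RANKL with acetate, 33.3 and 34.0 CPM in RANKL, and 25.5 CPM in both day 0 libraries. All 4 treated libraries lay above day 0, with acetate and RANKL overlapping. Ccne1 rose 1.32-fold in RANKL against day 0 (log2 0.40 ± 0.10, edgeR adjusted p = 0.000909), and Ccne2 rose by 0.29 ± 0.076 (edgeR adjusted p = 0.00134). The Ccne2 call was lost on the authors' length-scaled values, with adjusted p up to 0.239 from limma on log2(TPM + 0.1), log2(TPM + 1) or log2(FPKM + 0.1). Their kinase Cdk2 had 62.1 and 68.7 CPM in RANKL with acetate, 63.8 and 63.9 CPM in RANKL, and 73.3 and 68.2 CPM at day 0. The RANKL libraries were below day 0, but the difference of -0.15 ± 0.071 was not called (edgeR adjusted p = 0.0646). The transcription factor gene E2f1 had 74.7 and 65.3 CPM in RANKL with acetate, 64.3 and 69.8 CPM in RANKL, and 65.7 and 74.0 CPM at day 0, and all 3 groups overlapped.

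The mitotic genes opened with the cyclins that drive entry into mitosis, their kinase and its activating phosphatase, of which 3 of 5 rose in RANKL against day 0. Ccnb1, cyclin B1, had 192 and 201 CPM in RANKL with acetate, 219 and 205 CPM in RANKL, and 152 and 149 CPM at day 0. Its groups did not overlap, and the acetate libraries lay between the other pairs. Ccnb1 rose 1.41-fold in RANKL against day 0 (log2 0.49 ± 0.049, edgeR adjusted p = 6.06e-11), and its change of -0.11 ± 0.047 in RANKL with acetate against RANKL was not called (edgeR adjusted p = 0.0727). Ccnb2, cyclin B2, stayed within 89.5 and 96.3 CPM in RANKL with acetate, 90.5 and 92.7 CPM in RANKL, and 89.7 and 93.2 CPM at day 0. Its groups overlapped, with a change of 0.0035 ± 0.062 in RANKL against day 0 (edgeR adjusted p = 0.965). Ccna2, the cyclin of S phase and G2, rose by 0.17 ± 0.046 (edgeR adjusted p = 0.00177), and the kinase gene Cdk1 by 0.12 ± 0.052 (edgeR adjusted p = 0.0392), a call lost in 4 of 17 alternatives. Leaving out day 0 replicate 1, day 0 replicate 2 or RANKL replicate 2 gave Cdk1 an edgeR adjusted p of 0.132, 0.0867 and 0.167 in that order. Cdc25c, a phosphatase that activates CDK1, was the least abundant member per length and had 18 and 16.4 CPM in RANKL with acetate, 14.1 and 13.4 CPM in RANKL, and 15.1 and 14.2 CPM at day 0. Its acetate libraries were the highest, yet the change of 0.33 ± 0.14 against RANKL was not called (edgeR adjusted p = 0.0727).

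Genes of the spindle checkpoint and the anaphase-promoting complex had the highest median change of the 9 roles in RANKL against day 0, 0.73 on the log2 scale, with 4 of 5 called higher. Cdc20 (chr4:118432901-118437352, GRCm38), the activator of the complex at anaphase, had 126 and 122 CPM in RANKL with acetate, 148 and 152 CPM in RANKL, and 76.4 and 83.8 CPM at day 0. The groups stood apart in the order RANKL, RANKL with acetate, day 0. Cdc20 rose 1.87-fold in RANKL against day 0 (log2 0.91 ± 0.058, edgeR adjusted p = 8.67e-16), the largest rise of the 47 genes in that comparison. It fell by 0.27 ± 0.054 in RANKL with acetate against RANKL (edgeR adjusted p = 0.00014), and it was the only one of the 8 genes called there whose call held in all 17 alternatives. Its exons overlap Elovl1 on the other strand. Ube2c, the ubiquitin-conjugating enzyme that works with the complex, had 195 and 201 CPM in RANKL with acetate, 212 and 229 CPM in RANKL, and 136 and 130 CPM at day 0. It showed the same order of groups, rising by 0.73 ± 0.050 in RANKL against day 0 (edgeR adjusted p = 5.98e-15). It fell by 0.16 ± 0.048 in RANKL with acetate against RANKL (edgeR adjusted p = 0.00985), a call lost in 5 of 17 alternatives, among them without replicate 1 of RANKL with acetate (-0.14, edgeR adjusted p = 0.116) and without replicate 2 of RANKL (-0.11, edgeR adjusted p = 0.177).

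The checkpoint kinase gene Bub1 had 120 and 124 CPM in RANKL with acetate, 128 and 119 CPM in RANKL, and 72.6 and 76.0 CPM at day 0. Acetate and RANKL libraries overlapped and all 4 lay well above day 0. Bub1 rose 1.67-fold in RANKL against day 0 (log2 0.74 ± 0.060, edgeR adjusted p = 7.28e-13). Bub1b, whose product BUBR1 restrains CDC20 until chromosomes are attached, had 181 and 198 CPM in RANKL with acetate, 192 and 181 CPM in RANKL, and 128 and 127 CPM at day 0. It too overlapped between acetate and RANKL and rose by 0.55 ± 0.052 in RANKL against day 0 (edgeR adjusted p = 2.91e-11). Mad2l1, another component of the complex that restrains CDC20, had 94.5 and 91.1 CPM in RANKL with acetate, 96.7 and 88.0 CPM in RANKL, and 96.2 and 90.6 CPM at day 0. All 3 groups overlapped, with a change of -0.017 ± 0.063 in RANKL against day 0 (edgeR adjusted p = 0.83).

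**Figure D3:**
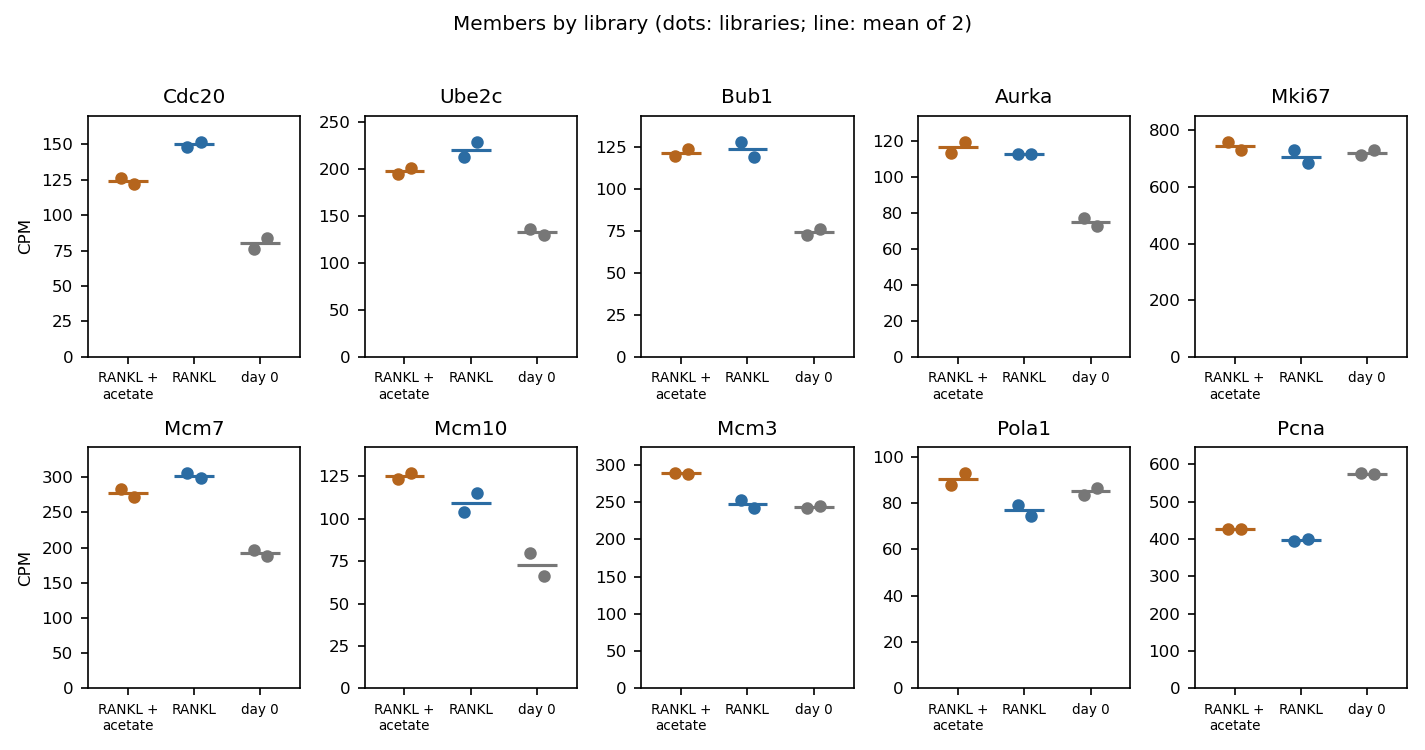
Level (CPM, axes from 0) of 10 genes in each library, with dots for libraries and lines for the mean of the 2 libraries, in RANKL with acetate, RANKL and day 0 from left to right. Cdc20, Ube2c and Mcm7 are highest in RANKL, Mcm10, Mcm3 and Pola1 in RANKL with acetate, and Pcna at day 0, while the RANKL libraries of Mki67 overlap those of both other groups.

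Of the 4 genes of mitotic kinases and the chromosomal passenger complex, 3 rose in RANKL against day 0 and none was called in RANKL with acetate against RANKL. Aurka, the Aurora kinase of the spindle poles, had 113 and 120 CPM in RANKL with acetate, 113 CPM in both RANKL libraries, and 77.0 and 72.6 CPM at day 0. All 4 treated libraries were above day 0, and Aurka rose 1.51-fold in RANKL against day 0 (log2 0.59 ± 0.061, edgeR adjusted p = 1.69e-10). Aurkb, the Aurora kinase of the passenger complex, rose by 0.27 ± 0.066 (edgeR adjusted p = 0.000556), a call lost in 2 of 17 alternatives. Birc5, survivin of the same complex, had 125 and 127 CPM in RANKL with acetate, 123 and 114 CPM in RANKL, and 93.9 and 95.2 CPM at day 0. It rose by 0.32 ± 0.058 in RANKL against day 0 (edgeR adjusted p = 8.93e-06). Plk1, a kinase needed from mitotic entry to cytokinesis, had 122 CPM in both RANKL with acetate libraries, 118 and 113 CPM in RANKL, and 116 and 119 CPM at day 0. Its RANKL and day 0 libraries overlapped (log2 -0.022 ± 0.055, edgeR adjusted p = 0.74).

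Top2a, the topoisomerase that untangles sister chromosomes, and Mki67, which encodes the Ki-67 proliferation antigen, are both widely used to mark cycling cells, and 1 of the 2 was called in RANKL against day 0. Top2a had 668 and 656 CPM in RANKL with acetate, 635 and 619 CPM in RANKL, and 505 and 514 CPM at day 0. The groups did not overlap, and Top2a rose 1.23-fold in RANKL against day 0 (log2 0.30 ± 0.036, edgeR adjusted p = 5.67e-09). Mki67 had 759 and 730 CPM in RANKL with acetate, 730 and 683 CPM in RANKL, and 713 and 730 CPM at day 0. Its RANKL and day 0 libraries overlapped, with a change of -0.030 ± 0.037 (edgeR adjusted p = 0.494).

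Of the 5 genes of motors, spindle and kinetochore, 3 rose in RANKL against day 0. Kif20a, a kinesin of the central spindle in late mitosis, had 154 and 145 CPM in RANKL with acetate, 154 and 152 CPM in RANKL, and 101 and 88.0 CPM at day 0. It rose 1.62-fold in RANKL against day 0 (log2 0.69 ± 0.059, edgeR adjusted p = 1.49e-12), with all 4 treated libraries above day 0. Cenpf, a large kinetochore protein, had 107 and 103 CPM in RANKL with acetate, 112 CPM in both RANKL libraries, and 76.1 and 77.1 CPM at day 0. It rose by 0.55 ± 0.059 in RANKL against day 0 (edgeR adjusted p = 4.98e-10), and its acetate libraries lay below those of RANKL without a call (edgeR adjusted p = 0.214). Kif11, the kinesin that pushes spindle poles apart, rose by 0.21 ± 0.052 in RANKL against day 0 (edgeR adjusted p = 0.000569). Cenpe, a kinetochore motor, had 134 and 145 CPM in RANKL with acetate, 147 and 131 CPM in RANKL, and 125 and 132 CPM at day 0, and was not called in any comparison. Tpx2, which activates Aurora A on the spindle, had 172 and 169 CPM in RANKL with acetate, 158 and 153 CPM in RANKL, and 147 and 166 CPM at day 0. Its RANKL libraries fell within the spread of day 0, and it rose by 0.14 ± 0.053 in RANKL with acetate against RANKL (edgeR adjusted p = 0.0464), a call lost in 11 of 17 alternatives, among them the omission of each of the 4 libraries compared (edgeR adjusted p from 0.0988 to 0.258).

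**Figure D4:**
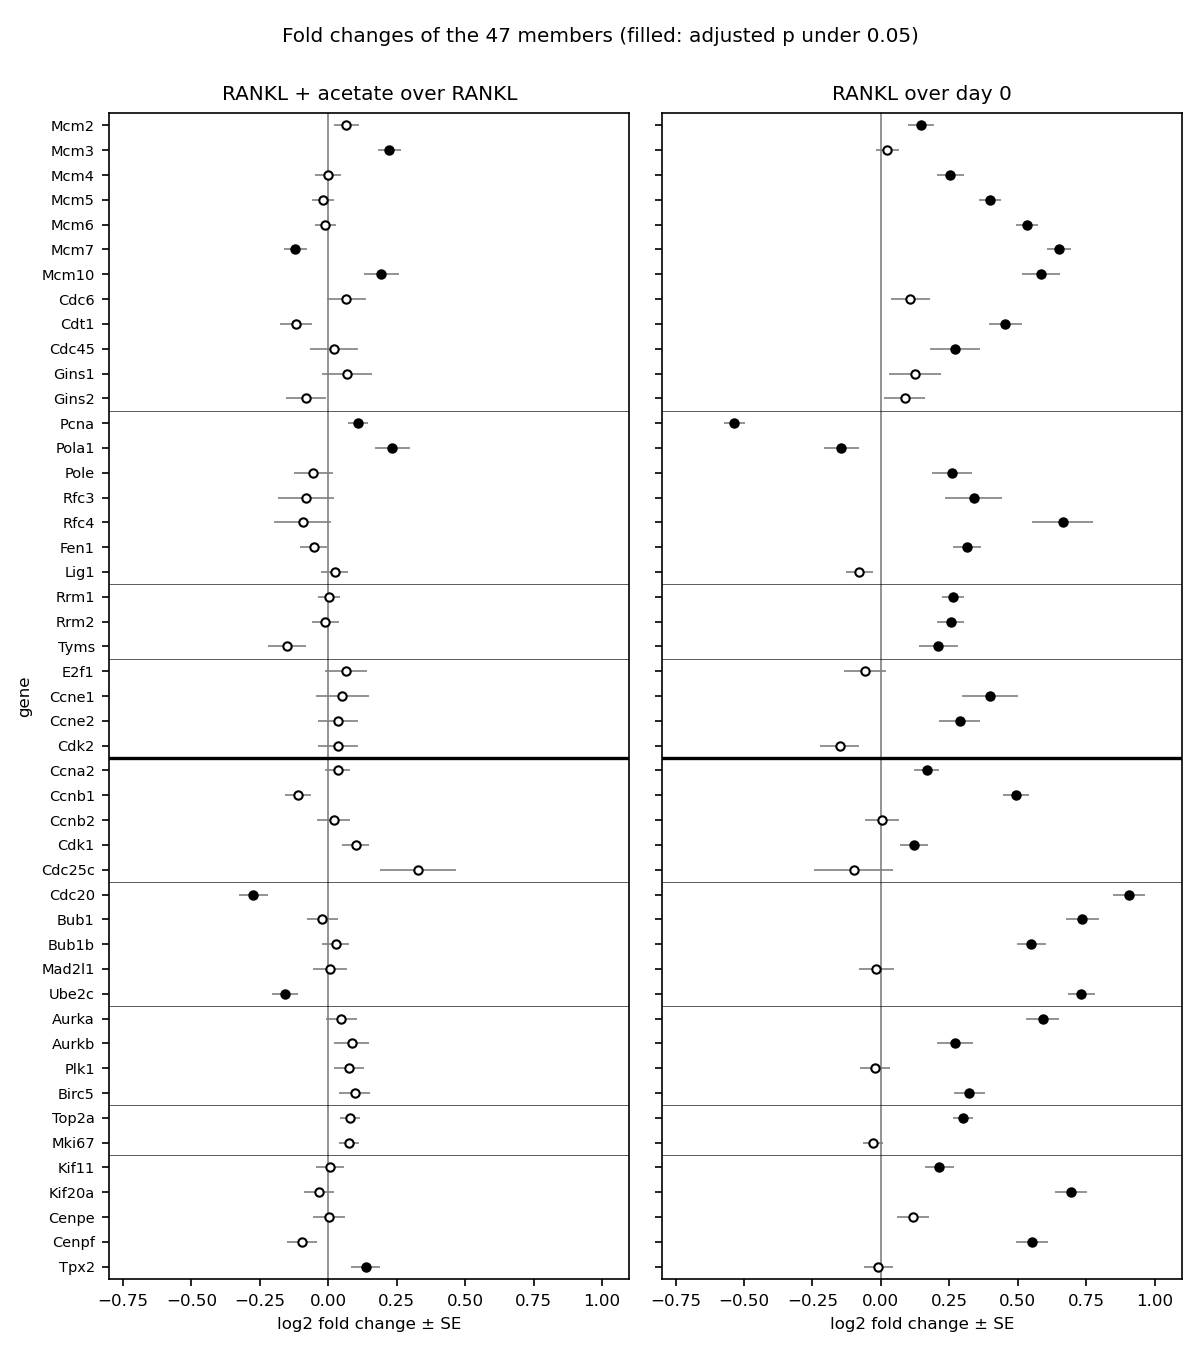
Log2 fold change with its SE for each of the 47 genes in RANKL with acetate against RANKL (left) and RANKL against day 0 (right), with filled points for genes called at an adjusted p under 0.05. The right panel leans to positive values up to 0.91 for Cdc20, with Pcna at -0.53, and the left panel stays between -0.27 and 0.33.

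Set against each other, replication and mitosis genes had nearly the same median rise with RANKL. In RANKL against day 0, 17 of 26 replication genes rose and 2 fell, with a median of 0.26, and 14 of 21 mitotic genes rose and none fell, with a median of 0.27. By library, the median over replication genes of log2(CPM) minus the day 0 mean was 0.25 and 0.25 in RANKL with acetate, 0.25 and 0.23 in RANKL, and 0.0022 and -0.0022 at day 0. For mitotic genes it was 0.35 and 0.28 in RANKL with acetate, 0.25 and 0.26 in RANKL, and -0.011 and 0.011 at day 0. All treated libraries stood above day 0 in both phases. In mitosis genes the acetate libraries also stood above those with RANKL alone by library, but the 2 acetate libraries differed from each other by more than the nearer one differed from RANKL. Against RANKL alone, 4 replication genes rose and 1 fell in RANKL with acetate, with a median of 0.012, and 1 mitotic gene rose and 2 fell, with a median of 0.027. That mitotic median was 0.0057 without replicate 2 of RANKL with acetate, 0.052 without its replicate 1 and 0.054 without replicate 1 of RANKL. The replication median was -0.0098 without replicate 2 of RANKL with acetate and 0.025 without its replicate 1. Against day 0, 18 replication genes rose and 1 fell (median 0.25), and 15 mitotic genes rose and none fell (median 0.36) in RANKL with acetate. No test was made of these medians, since the genes were chosen with earlier results known.

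**Figure D5:**
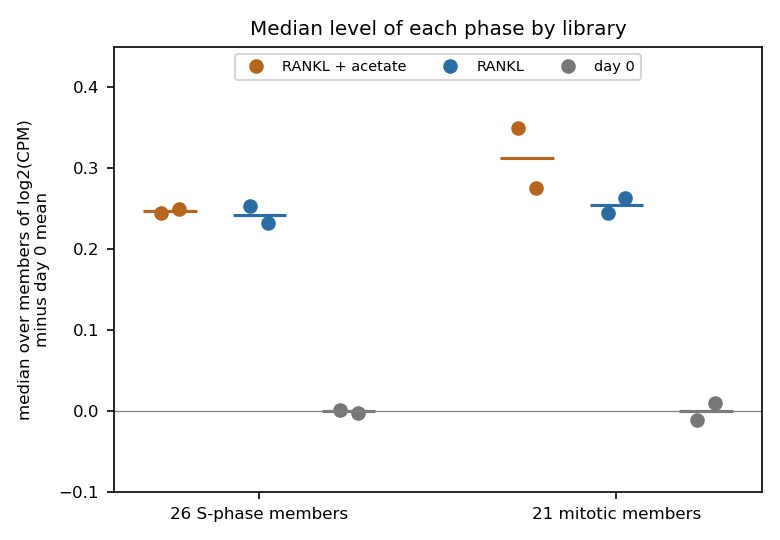
Median over the 26 replication (S-phase) and the 21 mitotic genes of log2(CPM) minus the gene's day 0 mean, with dots for libraries and lines for the mean of the 2 libraries of each group. Both phases sit between 0.23 and 0.35 in the RANKL-treated libraries and close to 0 at day 0.

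Levels per transcript length spanned a wide range. Over all 6 libraries the mean TPM, the authors' level scaled for transcript length and library, was highest for Pcna at 508, Ube2c at 350 and Cdk1 at 322, and lowest for Pole at 19.9, Cenpf at 13.3 and Cdc25c at 12.3. Medians were 68.3 TPM for replication genes and 86.5 TPM for mitotic genes. Summed TPM of the replication genes were 2528 and 2544 in RANKL with acetate, 2558 and 2519 in RANKL, and 2380 and 2387 at day 0. For the mitotic genes the sums were 2479 and 2475 in RANKL with acetate, 2540 and 2500 in RANKL, and 1945 and 1979 at day 0. Pcna, which fell, makes up a large part of the replication sum. Most genes used 1 transcript throughout: 30 had at least 90% of their counts on the main one, and these include the 10 with a single annotated transcript in the table. Its share differed by 10 points or more in RANKL against day 0 for Cdc45-201 (84.42% in RANKL and 94.72% at day 0) and Lig1-201 (56.72% in RANKL and 45.59% at day 0). Between RANKL with acetate and RANKL it did so for E2f1-202, with 85.70% in RANKL with acetate and 73.05% in RANKL. Libraries of a group differed as much, for example 75.05% and 43.47% for Lig1-201 in RANKL with acetate, so these shares are given as estimates without a test.

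Further genes of the same pathways, listed by function, were read from the same fit. Of 43 further replication genes, all tested, 23 rose and 6 fell in RANKL against day 0, with a median of 0.27. Of 50 further mitotic genes, 47 were tested, and 24 rose and 10 fell, with a median of 0.14. The symbols Knl1, Sgo1 and Sgo2a were not found among the deposited genes, and no older symbol was tried. Over all genes tested in that comparison 32.8% were called higher and 33.5% lower, with a median of 0.010. The largest rises were those of Mybl2, a subunit of the complex that activates CHR-containing genes, and Spc24, of the kinetochore. Mybl2 had 135 and 145 CPM in RANKL with acetate, 145 and 154 CPM in RANKL, and 46.5 and 42.1 CPM at day 0, a 3.37-fold rise in RANKL against day 0 (log2 1.75 ± 0.066, edgeR adjusted p = 3.19e-22). Spc24 rose by 1.49 ± 0.10 (edgeR adjusted p = 1.41e-14), Gins3 by 1.17 ± 0.13 (edgeR adjusted p = 1.53e-09) and Orc2, of the origin recognition complex, by 1.16 ± 0.066 (edgeR adjusted p = 4.28e-17). Ccnf, which encodes cyclin F, rose by 0.94 and Dut, which removes dUTP, by 0.86.

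The lowered genes included a pair of E2F factors and an inhibitor of helicase loading. E2f2, an activating E2F, had 57.8 and 56.4 CPM in RANKL with acetate, 33.1 and 35.3 CPM in RANKL, and 68.3 and 73.6 CPM at day 0. No 2 groups overlapped. E2f2 fell by 1.05 ± 0.079 on the log2 scale in RANKL against day 0 (edgeR adjusted p = 7.67e-14) and rose by 0.74 ± 0.081 in RANKL with acetate against RANKL (edgeR adjusted p = 4.19e-09). Gmnn, geminin, which blocks Cdt1, fell by 0.36 ± 0.064 in RANKL against day 0 (edgeR adjusted p = 7.37e-06), and E2f7, a repressing E2F, by 0.45 ± 0.13 (edgeR adjusted p = 0.0021). Among mitotic genes Cdkn3, Pttg1 and Spc25 fell by 0.47, 0.45 and 0.44. Pttg1, securin, which holds separase back until anaphase, had 27.3 and 28.6 CPM in RANKL with acetate, 16.3 and 15.0 CPM in RANKL, and 19.1 and 23.6 CPM at day 0. It rose 1.79-fold in RANKL with acetate against RANKL (log2 0.84 ± 0.12, edgeR adjusted p = 1.7e-06).

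Calls were few for the further genes when acetate was added, as for the 47. Of the further replication genes 4 rose and 4 fell in RANKL with acetate against RANKL, and of the further mitotic genes 5 rose and 4 fell, against the background of 16.7% higher and 13.7% lower. Besides E2f2, Gmnn rose by 0.20 and Rfc1 by 0.19, and Rfc5 and Pold1 fell by 0.21 and 0.21. Besides Pttg1, Cdc25b rose by 0.34 and Spc25 by 0.28, and Ccnf, Kif2c and Ckap2 fell by 0.31, 0.29 and 0.27. Against day 0, 24 further replication genes rose and 3 fell, and 24 further mitotic genes rose and 6 fell, in RANKL with acetate, beside 30.3% of all genes called higher and 30.4% lower. Mybl2 rose by 1.66, Spc24 by 1.25, Orc2 by 0.97, Gins3 by 0.91, Hells, a chromatin remodeller, by 0.90, and Espl1, separase, by 0.65. The lowest values were -0.44 for Cdkn3, -0.36 for Incenp, -0.32 for E2f7, -0.31 for E2f2, -0.29 for Ect2 and -0.16 for Gmnn, all called lower.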

How the data were processed

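Libraries of mRNA were made with a SMARTer kit from DNase-treated RNA, per the labels' protocols. The tools named are Trimmomatic 0.39, STAR, RSEM 1.3.1 and DESeq2 1.26.0, with the build GRCm38, per the submitters' processing notes. The authors deposited RSEM expected counts, which are not normalized. The deposited TPM and FPKM were scaled by the authors for length and library total. The labels state neither a strand setting nor a version of STAR.

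Rounded expected counts were tested with edgeR 4.0.16 under R 4.3.3: filterByExpr (minimum count 10, minimum total 15), TMM factors of 0.952 to 1.037, and a quasi-likelihood fit with 1 mean per group over all 6 libraries, Benjamini-Hochberg adjusted over 12224 genes and called under 0.05. The biological coefficient of variation was 3.58%. The chi-square per gene between libraries of a group was 1.93 to 2.58, above counting noise, so no pair was merged. Data were also simulated for RANKL against day 0 over 12224 genes, with 100 genes changed at each size and the same dispersion for every gene. In them 77% of genes changed by 0.5 and 87% of those changed by 1 on the log2 scale were recovered, with 0.0416% false calls. Far more genes were called in the data (66.3% in that comparison), so these are not the error rates of the calls above.

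Genes whose values are given in every library are, in each role and comparison, the highest and the lowest fold change, and Ube2c was added after its values were seen. Of the further genes, the 3 highest and 3 lowest called in each list and comparison are named. The 47 genes, the lists and the rules were chosen with earlier results of these data known. Coordinates and transcript names are from GENCODE M21, on GRCm38. The exons of 16 of the 47 genes overlap another gene there. Of the 41 promoter windows of the 37 genes, 33 hold or run into the first bases of a GENCODE transcript of the gene, on its strand. Transcript shares came from the deposited transcript-level expected counts. Alternatives were DESeq2 1.42.0, limma 3.58.1 (voom on counts, and trend on log2 TPM with 0.1 or 1 added and on log2 FPKM with 0.1 added), RLE and upper-quartile factors, no filter, a minimum of 5 CPM in 2 libraries, a fit without the third group, a replicate block, each library left out, other phase assignments and 150-base windows.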

Additional observations from a re-analysis of the deposited data

How the results depend on the processing

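Calls of the 47 genes in RANKL against day 0 held in all 17 alternatives for 12 of 19 replication and 12 of 14 mitotic genes, those in RANKL with acetate against day 0 for 13 of 19 and 13 of 15, and those in RANKL with acetate against RANKL for 0 of 5 and 1 of 3 (Cdc20). No called gene changed sign. Calls in RANKL with acetate against day 0 that were lost without 1 library were those of Cdc45 (adjusted p up to 0.0865, without ACD1 replicate 1 or D0 replicate 1), Cdc6 (up to 0.234, ACD1 replicate 2 or either D0 library), Pole (up to 0.165, ACD1 replicate 1 or D0 replicate 2), Rfc3 (up to 0.55, any library but ACD1 replicate 2) and Tpx2 (up to 0.618, any library but D0 replicate 2), from edgeR. In RANKL against day 0, 1 replication gene in place of 2 was lower under DESeq2, RLE, upper-quartile, no filter, only the 2 groups compared, TPM with 0.1 or 1 added, and FPKM, with 1 to 2 when a library was left out. The replication median was 0.32 with upper-quartile factors, 0.27 with only those groups and 0.37 on FPKM (0.23 to 0.27 with a library left out), and the mitotic median 0.34 with upper-quartile factors and 0.39 on FPKM (0.24 to 0.31). FPKM moved the median of all genes by 0.12 in that comparison, and upper-quartile factors moved it by 0.066.

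In RANKL with acetate against RANKL, all genes called were 3717, but 2462 with DESeq2, 1843 and 1908 on TPM with 0.1 and 1 added, and 1894 on FPKM. Replication genes higher numbered 2 with DESeq2 and 0 on TPM and FPKM (1 to 4 with a library left out), and lower ones 0 in all of these (0 to 1). Mitotic genes higher numbered 0 with DESeq2, RLE, upper-quartile, TPM and FPKM (0 to 1), and lower ones 1 with DESeq2 and on TPM with 0.1 added (1 to 2). The replication median was -0.0042 with upper-quartile factors, 1e-04 on either TPM scale, -0.016 on FPKM, 0.021 with Ccna2 counted as a replication gene and -0.0057 without the G1/S genes and Ccna2 (-0.0098 to 0.025), so its sign changed with the setting. The mitotic median, 0.027 as reported, was -0.015 on FPKM, 0.0018 and 0.0020 on TPM with 0.1 and 1 added and 0.012 with upper-quartile factors (0.0057 without ACD1 replicate 2, 0.052 without ACD1 replicate 1, 0.054 without D1 replicate 1, and 0.025 to 0.026 with one of the others left out). In RANKL with acetate against day 0 the replication median was 0.30 with upper-quartile factors, 0.22 on either TPM scale and 0.32 on FPKM (0.24 to 0.25), and the mitotic median 0.41 with upper-quartile factors and 0.44 on FPKM (0.28 to 0.37). The cause of these differences was not tested.

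The titles number only 1 library of each group, and the unnumbered one was called replicate 2. Deviations of same-numbered libraries correlated at -0.0067 between RANKL with acetate and RANKL. They correlated at -0.063 between RANKL with acetate and day 0, and -0.027 between RANKL and day 0. These values gave no sign of pairing by number, but cannot show whether libraries shared a culture or mouse. With the replicate block 3611 genes were called in RANKL with acetate against RANKL, 7371 in RANKL with acetate against day 0 and 8028 in RANKL against day 0. The block left 1 replication gene lower in RANKL against day 0 and 0 mitotic genes higher in RANKL with acetate against RANKL. Shares of motifs in 150-base windows were 52.4%, 9.5% and 52.4% of replication genes and 6.2%, 75.0% and 75.0% of mitotic genes for E2F cores, CHR elements and CCAAT boxes, beside 6.5%, 9.9% and 26.3% of all genes. Each member had at least 136 counts in every library. With a library left out, the lone library of its group is assumed to vary like the other groups.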
